A study of Mus musculus with 7 samples.

Results

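The acyl-CoA dehydrogenases and the electron transfer flavoproteins were followed in the mouse soleus, a postural hindlimb muscle rich in mitochondria, after knockout of Yy1, which encodes Yin Yang 1, a DNA-binding zinc finger protein. The 10 member genes were taken by name: Acadvl, Acadl, Acadm and Acads of straight-chain fatty acid oxidation, Acadsb, Acad8 and Gcdh of amino acid breakdown, and Etfa, Etfb and Etfdh of electron transfer. Every probe set that the platform annotation gives to one of these genes alone was used, which made 12 of the 22626 probe sets tested and 10 of 12393 genes. Acadl and Acad8 had a second, dimmer probe set each.

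The 7 arrays were 4 labelled as Yin Yang 1 (YY1) knockout and 3 labelled as wild type, all from mice 6 months old and of a mixed background of C57Bl/6 and 129. The labels give neither the cells that lost Yy1 nor the promoter or Cre used, and do not say that each array stands for its own animal, so a p-value here covers the spread between arrays, which may be technical. Each array gave 1 intensity for a probe set, and values below are log2(intensity + 1) unless stated otherwise. The number of arrays limits the precision.

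Acyl-CoA dehydrogenases are flavoproteins of the mitochondrial matrix that take the first step of each turn of beta-oxidation, placing a double bond in the acyl chain. Different enzymes serve very long, long, medium and short chains, and related enzymes act on the acyl-CoA intermediates of isoleucine, valine, lysine and tryptophan. All of them pass their electrons to electron transfer flavoprotein (ETF), a dimer of the Etfa and Etfb products, and from there through the Etfdh product to ubiquinone in the inner membrane. In humans, loss of any of the ETF genes blocks all of these dehydrogenases together.

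Yy1 was lower in knockout in 3 of its 4 probe sets. Its brightest probe set measured 8.39, 8.24, 8.48 and 8.29 in knockout arrays 1 to 4, against 9.32, 9.20 and 9.62 in wild type arrays 1 to 3 (log2 fold change -1.02, SE 0.11, limma with Benjamini-Hochberg adjustment, adjusted p = 0.000271). The size differed between probe sets. Another measured 8.41, 7.83, 7.83 and 8.10 in knockout and 9.86, 9.67 and 9.71 in wild type (log2 fold change -1.70, SE 0.14, adjusted p = 0.00012), and a dimmer one changed by -0.77 (SE 0.15, adjusted p = 0.00629). The dimmest Yy1 probe set differed by -0.06 (SE 0.11, adjusted p = 0.711). Skeletal muscle fibre markers were bright in both groups, with summed intensities of 352935 to 364300 in knockout and 341230 to 355597 in wild type, while 3 of the 10 were lower and 5 higher. Among these, Myh2, of a fast myosin heavy chain, changed by -0.46 and Ckm, of muscle creatine kinase, by -0.21. The myoglobin gene Mb changed by -0.41 (-0.09 in its other probe set). Des, of desmin, changed by 0.54 (0.35 in its other probe set) and Tnni1, of slow troponin I, by 0.40. The summed intensity of 7 macrophage markers was 7502 to 11524 in knockout and 3174 to 3679 in wild type (7 of 7 higher). That of 7 endothelial markers was 1594 to 1753 in knockout and 3411 to 3777 in wild type (7 of 7 lower), and that of 6 fibroblast markers was 23757 to 35806 in knockout and 18591 to 21926 in wild type (4 of 6 higher). Of 6 adipocyte markers 2 were lower and 1 higher, with sums of 7666 to 10673 in knockout and 14223 to 15609 in wild type. The sum rests mostly on Fabp4, the brightest of them (log2 fold change -0.72). Lep changed by -1.88 and Retn by 1.06. Adipoq (-0.45, limma adjusted p = 0.281) and Cidec (-0.82, limma adjusted p = 0.0641) did not pass. The brown fat marker Ucp1 measured 4.68 ± 0.11 in knockout (SD, n = 4) and 4.59 ± 0.07 in wild type (SD, n = 3). Smooth muscle and pericyte markers (3 of 6 lower) summed to 8474 to 9313 in knockout and 12548 to 14866 in wild type. Schwann cell markers (1 of 3 lower) summed to 1460 to 1801 and 1888 to 2405, and red blood cell markers (1 of 2 lower) to 101 to 154 and 162 to 222, each with knockout given before wild type. The 2 red blood cell markers were dim, both below the median level of all probe sets. The log2 ratio of the 3′ to the 5′ control probe set, a sign of RNA integrity, was -0.02 to 0.05 for Gapdh and 0.09 to 0.21 for Actb in knockout, against -0.06 to -0.04 and 0.07 to 0.10 in wild type. The part of these cell types and of RNA quality in the results below was not tested.

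Knockout array 1 stood apart from the other knockout arrays for the member genes. It was the highest knockout array in 10 of 12 member probe sets and lay on average 0.21 log2 units above the knockout mean, so that the change of each member below is also given without it. Its Yy1 signal, at 8.39, lay within the range of the other knockout arrays in the brightest probe set, while in the probe set with the change of -1.70 it was the highest knockout array at 8.41. Its log2 ratio of 3′ to 5′ control probe sets was the highest of the 7 arrays for both Gapdh (0.05) and Actb (0.21).

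The stretch of DNA before the transcription start is shown for 6 members, since the gene targeted here encodes a transcription factor and most members moved together. These are the 250 bases before the start of each gene in RefSeq (build GRCm38.p6, found for 10 of 10 members), written 5′ to 3′ on the gene's own strand. Capitals mark matches to CCATNTT, the core of the YY1 motif, or to the core of the motif of nuclear respiratory factor NRF1, each on either strand. Acadvl and Acadsb are shown for a YY1 core match. Etfb and Etfdh, whose log2 fold changes were the most negative of the 10, are shown for an NRF1 core match. Acadm and Acad8 are shown as the dehydrogenases with the most and the least negative change among the members, with neither match. Only exact matches count, and the Acadm stretch holds a near match to the NRF1 core.
Acadvl, chr11:70015429-70015678, minus strand: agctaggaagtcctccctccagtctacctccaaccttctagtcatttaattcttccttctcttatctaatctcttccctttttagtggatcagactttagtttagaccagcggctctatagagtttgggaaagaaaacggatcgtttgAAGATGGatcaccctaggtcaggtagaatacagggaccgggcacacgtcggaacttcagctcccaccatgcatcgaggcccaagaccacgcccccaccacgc
Acadsb, chr7:131410351-131410600, plus strand: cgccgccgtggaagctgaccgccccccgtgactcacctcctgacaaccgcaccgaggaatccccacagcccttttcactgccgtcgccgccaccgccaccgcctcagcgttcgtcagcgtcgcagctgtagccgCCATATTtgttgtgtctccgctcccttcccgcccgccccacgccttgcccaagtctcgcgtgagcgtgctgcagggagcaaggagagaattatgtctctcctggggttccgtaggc
Etfb, chr7:43443822-43444071, plus strand: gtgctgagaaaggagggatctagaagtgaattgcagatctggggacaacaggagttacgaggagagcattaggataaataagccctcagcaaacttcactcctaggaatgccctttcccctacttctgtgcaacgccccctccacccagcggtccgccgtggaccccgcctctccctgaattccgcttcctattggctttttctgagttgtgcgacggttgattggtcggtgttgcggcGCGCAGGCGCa
Etfdh, chr3:79628768-79629017, minus strand: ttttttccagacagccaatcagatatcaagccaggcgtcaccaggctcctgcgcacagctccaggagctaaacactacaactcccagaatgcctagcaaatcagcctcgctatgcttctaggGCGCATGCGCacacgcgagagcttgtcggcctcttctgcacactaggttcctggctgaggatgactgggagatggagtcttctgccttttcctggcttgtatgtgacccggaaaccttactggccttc
Acadm, chr3:153944644-153944893, minus strand: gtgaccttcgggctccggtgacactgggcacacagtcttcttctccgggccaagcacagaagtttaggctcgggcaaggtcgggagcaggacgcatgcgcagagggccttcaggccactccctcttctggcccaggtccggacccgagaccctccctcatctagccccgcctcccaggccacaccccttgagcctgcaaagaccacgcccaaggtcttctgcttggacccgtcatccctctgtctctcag
Acad8, chr9:26999550-26999799, minus strand: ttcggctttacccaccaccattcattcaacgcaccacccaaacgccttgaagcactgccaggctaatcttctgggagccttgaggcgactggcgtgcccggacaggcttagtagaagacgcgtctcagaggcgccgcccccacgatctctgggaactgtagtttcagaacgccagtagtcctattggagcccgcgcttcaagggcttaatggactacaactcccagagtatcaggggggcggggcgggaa

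The YY1 core began 102 bases before the start of Acadvl and 116 before that of Acadsb. Over the full window of 250 bases before and 50 after the start, 2 of 10 members held it, against 16.1% of 32817 RefSeq promoters. The NRF1 core began 11 bases before the start of Etfb and 128 before that of Etfdh, and was held by 2 of 10 members, against 4.59% of promoters. GGGCGG, the SP1 motif, was held by 7 of 10 members, against 35.6% of promoters. None of the 10 windows held CCGGAAG, an ETS motif (8.86% of promoters), TNAAGGTCA, the motif of the ERR receptors (1.28%), or the direct repeat of AGGTCA that PPAR receptors bind (0.0396%). Both strands were searched and no match of one motif overlapped one of another. A match of letters is not a measured binding site, and binding was not measured here.

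Knockout soleus had less signal for 9 of the 10 genes, and none was higher. By probe set, 10 of 12 (83.3%) were lower at an adjusted p below 0.05, where 14.3% of all probe sets were lower and 14.3% higher, and by gene 9 of 10, where 15.5% of genes were lower and 31.8% passed in either direction (28.6% of probe sets). The median log2 fold change of the 10 genes was -0.67, or 62.8% of the wild type signal, beside 0.013 over all genes. The groups did not overlap in 10 of 12 probe sets (83.3%), with knockout below, against 17.9% of all probe sets. From bulk muscle, fewer cells of a type and less RNA per cell cannot be told apart.

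Among the straight-chain enzymes all 4 were lower, by log2 fold changes of -0.61 to -0.87, and their order did not follow chain length. Acadvl, of the membrane-bound enzyme for very long chains, measured 13.16, 12.89, 12.88 and 12.86 in knockout arrays 1 to 4 and 13.53, 13.63 and 13.57 in wild type arrays 1 to 3. All knockout values lay below all wild type values, and knockout array 1 lay nearest to wild type. The log2 fold change was -0.63 (SE 0.08, adjusted p = 0.00082), which left 64.7% of the wild type signal. Without knockout array 1 it was -0.70.

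Acadl, of the long-chain enzyme, measured 13.55, 13.34, 13.24 and 13.41 in knockout and 13.94, 14.06 and 13.99 in wild type. Again the groups did not overlap, and the log2 fold change was -0.61 (SE 0.08, adjusted p = 0.000806; -0.67 without knockout array 1), which left 65.5%. The dimmer Acadl probe set measured 5.03, 4.98, 5.07 and 4.90 in knockout, and 5.40, 5.57 and 5.07 in wild type, where the third array was level with the highest knockout array. Its log2 fold change of -0.35 (SE 0.11) passed narrowly (adjusted p = 0.044). The call was lost without any 1 of the 4 knockout arrays, without wild type array 1 or without wild type array 2 (adjusted p = 0.0648 to 0.147), and when replicate number was fitted as a block (adjusted p = 0.121). Intensities there were 29 to 33 in knockout and 33 to 46 in wild type, where the dimmest probe set of an array gave 11.34 to 12.88.

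Acadm, of the medium-chain enzyme MCAD, had the most negative change of the 7 dehydrogenases. It measured 13.85, 13.43, 13.46 and 13.46 in knockout and 14.42, 14.47 and 14.35 in wild type. As intensities, these were 14725, 11000, 11299 and 11243 in knockout against 21893, 22673 and 20923 in wild type. The 3 lower knockout arrays lay within 0.03 log2 units of each other and the first stood above them. The log2 fold change was -0.87 (SE 0.10, adjusted p = 0.000573), or 54.9% of wild type, and -0.96 without knockout array 1. Acads, of the short-chain enzyme, measured 1234, 998, 1022 and 955 as intensities in knockout and 1547, 1748 and 1592 in wild type, with no overlap. Its log2 fold change of -0.63 (SE 0.09, adjusted p = 0.00153; -0.71 without knockout array 1) left 64.4%, close to the figure for Acadvl at the other end of the chain-length range.

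**Figure D1:**
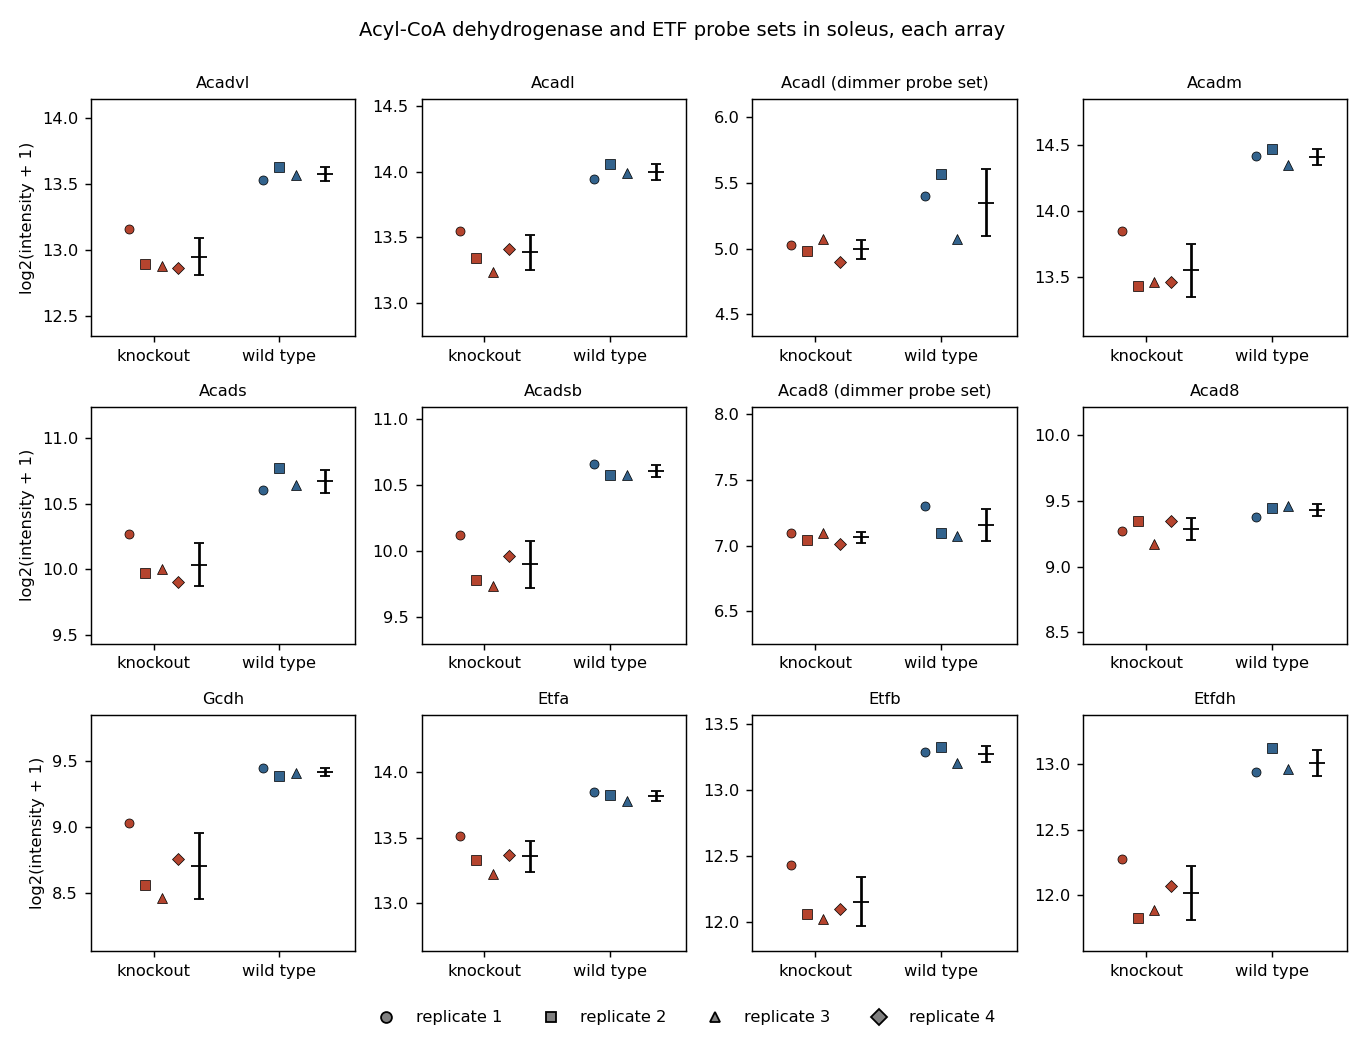
Signal of each of the 12 probe sets as log2(intensity + 1) in 4 knockout arrays (left, red) and 3 wild type arrays (right, blue), with marker shape for the replicate number and black bars for mean ± SD; every panel spans the same number of log2 units. Knockout values lie below wild type in all panels except the dimmer probe sets of Acadl and Acad8, and knockout array 1 (circle) is the highest knockout array in 10 of 12.

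Of the 3 enzymes of amino acid breakdown, 2 were lower and 1 did not pass the test. Acadsb, whose product oxidizes the branched short acyl-CoA of isoleucine, measured 10.12, 9.78, 9.73 and 9.96 in knockout and 10.66, 10.58 and 10.58 in wild type. The groups were apart by 0.46 log2 units at their nearest, and the log2 fold change was -0.71 (SE 0.10, adjusted p = 0.000949; -0.78 without knockout array 1). The name of the probe set carries the suffix that Affymetrix gives to sets with probes that may also match other transcripts. Gcdh, of glutaryl-CoA dehydrogenase in lysine and tryptophan breakdown, measured 9.03, 8.56, 8.46 and 8.76 in knockout and 9.45, 9.39 and 9.41 in wild type. The knockout arrays were more spread out than for any other member (SD 0.25, n = 4, against 0.03 in wild type, n = 3), and still all lay lower. The log2 fold change was -0.71 (SE 0.12, adjusted p = 0.00333; -0.82 without knockout array 1).

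Acad8, of isobutyryl-CoA dehydrogenase in valine breakdown, was the 1 member gene that did not pass the test. Its brightest probe set measured 9.27, 9.35, 9.17 and 9.35 in knockout and 9.38, 9.45 and 9.46 in wild type, so that the groups were apart by 0.03 log2 units. The log2 fold change was -0.15 (SE 0.06, adjusted p = 0.118, and 0.0794 to 0.248 over the alternatives; -0.14 without knockout array 1), and 90.4% of the wild type signal was left. A second probe set measured 7.10, 7.04, 7.10 and 7.01 in knockout and 7.30, 7.10 and 7.07 in wild type. There the groups overlapped and the log2 fold change was -0.10 (SE 0.07, adjusted p = 0.348).

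The electron transfer genes held both the most and one of the least negative changes. Etfb, of the beta subunit of ETF, measured 12.43, 12.06, 12.02 and 12.10 in knockout and 13.29, 13.33 and 13.21 in wild type. Relative to the wild type mean the knockout arrays stood at 55.5, 43.1, 41.8 and 44.3%. The log2 fold change was -1.12 (SE 0.10, adjusted p = 0.000159; -1.22 without knockout array 1), and 278 of 22626 probe sets (1.23%) had a more negative one. Etfdh, of the oxidoreductase that hands the electrons to ubiquinone, measured 12.28, 11.83, 11.89 and 12.07 in knockout and 12.94, 13.12 and 12.96 in wild type. Its log2 fold change was -0.99 (SE 0.11, adjusted p = 0.000364; -1.08 without knockout array 1), which left 50.2% of the signal.

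Etfa, of the alpha subunit that pairs with the Etfb product, was less changed. Etfa measured 13.51, 13.33, 13.22 and 13.37 in knockout and 13.85, 13.82 and 13.78 in wild type. The groups did not overlap, and the log2 fold change was -0.46 (SE 0.07, adjusted p = 0.00201; -0.51 without knockout array 1), which left 72.6%. Etfb and Etfdh are the members whose shown promoters hold the NRF1 core. Nrf1, the gene of that factor, measured 7.08 ± 0.04 in knockout (SD, n = 4) and 7.05 ± 0.17 in wild type (SD, n = 3). It did not pass the test (limma adjusted p = 0.814), and its 3 probe sets changed by -0.15 to 0.08. No member window held an exact match to the ERR, ETS or PPAR motif. Over all promoters the ERR and PPAR matches were rare (1.28% and 0.0396%). The ERR genes changed by -0.49 (Esrra), -0.51 (Esrrb, -0.04 in its other probe set) and -0.07 (Esrrg, not passed). Gabpa, of an ETS factor, changed by -0.27 (limma adjusted p = 0.039). The PPAR genes changed by -1.20 (Ppara), -0.81 (Pparg) and 0.01 (Ppard, not passed). The part of these factors was not tested.

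**Figure D2:**
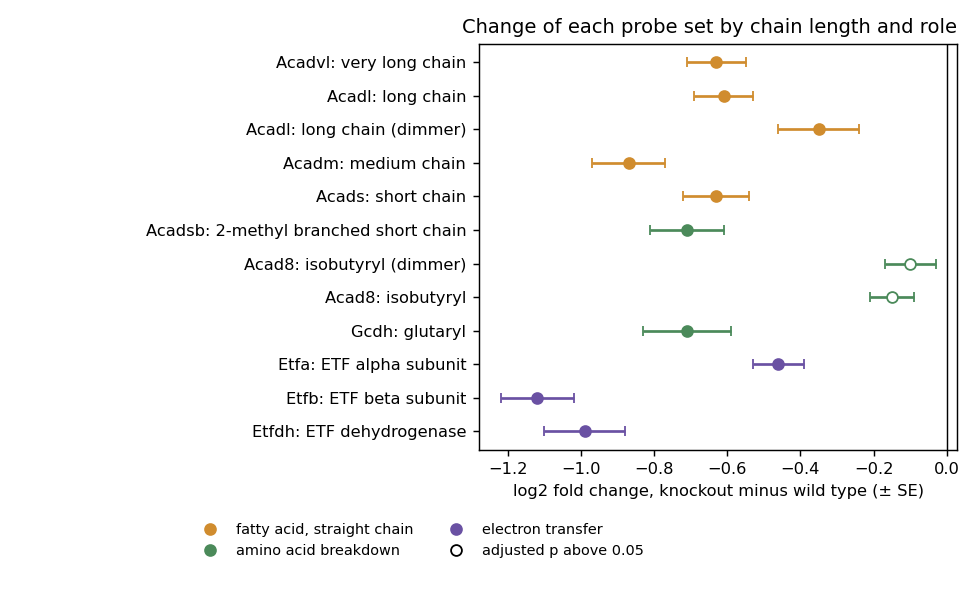
Log2 fold change, knockout minus wild type, with its SE for each probe set, ordered from very long to short straight-chain substrates, then amino acid enzymes, then electron transfer; open circles did not pass the adjusted p threshold of 0.05. Acadm (-0.87) stands left of its neighbours in chain length, Etfb (-1.12) and Etfdh (-0.99) stand furthest left, and the 2 probe sets of Acad8 stand nearest to 0.

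For single genes, a two-sided exact permutation test over the 35 divisions of the arrays gave the smallest p it allows, 0.0286, for 8 of 10 genes by their brightest probe sets. It gave 0.0571 for Gcdh and 0.0857 for Acad8. In all 10 genes the knockout values lay below the wild type values by the brightest probe set, and 19.1% of all genes showed this.

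To ask whether the genes changed by unequal amounts, the log2 ratio of 2 genes within an array was compared between knockout and wild type. This was done for the 21 pairs of dehydrogenases and the 3 pairs of electron transfer genes. After adjustment over these 24 pairs none passed (smallest adjusted p = 0.114 by the exact permutation test), and 6 pairs had an unadjusted p below 0.05. Each of these 6 had the smallest p that the design allows, 0.0286, and so few at that value could not pass after adjustment. The sizes are therefore given as values with their errors. Each gene entered by 1 probe set. Probe sets of the same gene could also differ in their change, as for Yy1 (-1.02 and -1.70) and Cpt2 (-1.39 and -0.22). Those of Hadhb were close (-0.80 and -0.79). The part of the probe sets themselves in the differences between genes was not tested.

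Acadm had the more negative change beside each of its neighbours in chain length, without passing after adjustment. The Acadvl to Acadm ratio, with its wild type mean set to 0, was 0.15, 0.30, 0.25 and 0.24 in knockout arrays 1 to 4 and -0.05, 0.00 and 0.05 in wild type arrays 1 to 3. All knockout values were higher, by 0.24 log2 units on average (SE 0.04, exact permutation p = 0.0286, adjusted p = 0.114). The Acadm to Acads ratio was -0.17, -0.28, -0.28 and -0.19 in knockout and 0.08, -0.05 and -0.03 in wild type, a difference of -0.23 (SE 0.05, exact permutation p = 0.0286, adjusted p = 0.114). The Acadl to Acadm difference was 0.26 (SE 0.07, exact permutation p = 0.0571, adjusted p = 0.125). In contrast the differences among the other straight-chain enzymes were -0.02 for Acadvl minus Acadl (SE 0.04), 0.01 for Acadvl minus Acads (SE 0.03) and 0.02 for Acadl minus Acads (SE 0.06), and for these 3 pairs the groups overlapped (exact permutation p = 0.8 to 0.886). With the 2 Acadl probe sets averaged, these values became -0.15 for Acadvl minus Acadl and 0.15 for Acadl minus Acads, and Acadl minus Acadm became 0.38.

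Between the amino acid enzymes, Acadsb and Gcdh differed by 0.00 (SE 0.04, exact permutation p = 0.971). Acadsb minus Acad8 was -0.32, -0.75, -0.62 and -0.56 in knockout and 0.10, -0.05 and -0.05 in wild type, a difference of -0.56 (SE 0.10, exact permutation p = 0.0286, adjusted p = 0.114). The first knockout array was again nearest to wild type. Acad8 differed from each of the other 6 dehydrogenases in the same direction, by 0.46 to 0.72 log2 units in size, with the groups apart each time and unadjusted exact permutation p values of 0.0286 to 0.0571.

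Within the electron transfer genes, the ratio of Etfa to Etfb was 0.54, 0.72, 0.66 and 0.73 in knockout and 0.02, -0.05 and 0.03 in wild type. The changes of the genes of the 2 subunits, each by 1 probe set, differed by 0.66 log2 units (SE 0.05, exact permutation p = 0.0286, adjusted p = 0.114). This was a 1.58-fold shift of the ratio of their signals. Etfa minus Etfdh was 0.42, 0.69, 0.52 and 0.50 in knockout and 0.10, -0.11 and 0.01 in wild type, a difference of 0.53 (SE 0.08, same p values). Etfb and Etfdh differed by -0.13 (SE 0.06, exact permutation p = 0.0857, adjusted p = 0.158), with overlapping groups. Leaving out any 1 array kept the Etfa to Etfb difference between 0.64 and 0.70, and that of Etfa to Etfdh between 0.48 and 0.58.

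**Figure D3:**
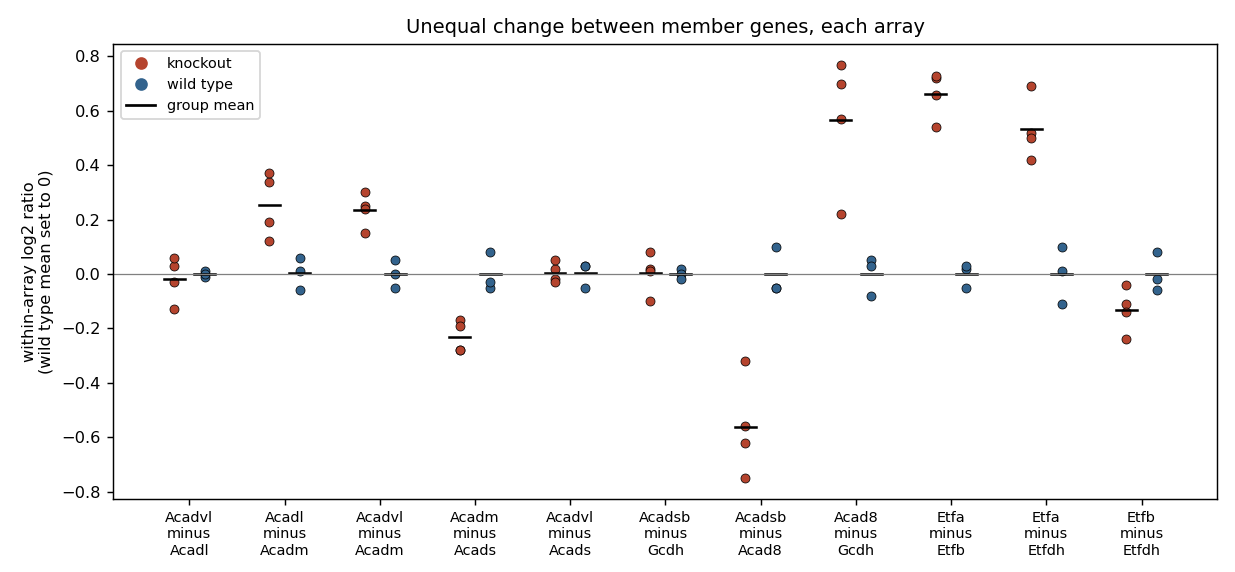
Within-array log2 ratio of 2 member genes in each array (points; knockout red, left; wild type blue, right), with the wild type mean of each ratio set to 0 and black lines for group means. Knockout arrays lie between 0.54 and 0.73 for Etfa minus Etfb and between 0.15 and 0.30 for Acadvl minus Acadm, while for Acadvl minus Acads and Acadsb minus Gcdh both groups lie around 0.

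Set among all probe sets, the member genes lay on the lower side without reaching its end. The share of probe sets with a more negative log2 fold change was 1.23% for Etfb, 1.78% for Etfdh and 2.49% for Acadm. It was 3.81% for both Acadsb and Gcdh, 4.72% for Acads, 4.78% for Acadvl and 5.06% for Acadl. For Etfa it was 7.80% and for Acad8 23.6%. The most negative value in the table was -4.27, far below that of any member.

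**Figure D4:**
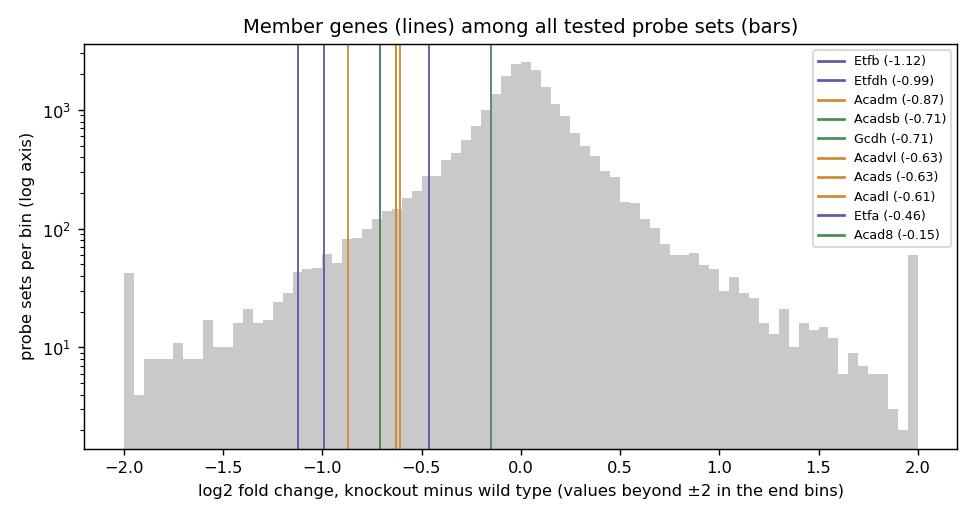
Number of tested probe sets per bin of log2 fold change (grey bars, log axis; values beyond the axis are held in the end bins), with a line for the brightest probe set of each member gene. The lines run from Etfb at -1.12 to Acad8 at -0.15, all left of 0.

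Other dehydrogenases that feed ETF were lower in 3 of 7 genes measured and higher in none (background 15.5% lower and 16.3% higher over all genes), with a median log2 fold change of -0.36. Over probe sets above the median level only 4 genes of this list were tested, and all 4 were lower. Acad11, a further acyl-CoA dehydrogenase, changed by -1.20 (SE 0.10, adjusted p = 0.000114), and Ivd, of the isovaleryl-CoA dehydrogenase of leucine breakdown, by -1.11 (SE 0.13, adjusted p = 0.000512). Acad9, known best for its part in assembling respiratory complex I, changed by -0.41 (SE 0.07, adjusted p = 0.003). Of the genes around ETF and its FAD cofactor, 2 of 5 were lower and none higher (median -0.01). Flad1, of FAD synthase, changed by -0.55 (SE 0.07, adjusted p = 0.000592). Etfrf1, of a small protein that removes FAD from ETF, changed by -0.77 (SE 0.10, adjusted p = 0.000763), and its other probe set by -0.22.

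The steps after the dehydrogenases were lower in 8 of 9 genes (median -1.13, against -0.67 for the member genes), with none higher. Echs1, of the short-chain enoyl-CoA hydratase, changed by -1.56 (SE 0.13), Hadha, of the trifunctional protein, by -1.46 (SE 0.10), and the isomerase gene Eci1 by -1.39 (SE 0.12). Of the steps before them, fatty acid activation and the carnitine shuttle, 8 of 10 genes were lower and 1 higher (median -0.62). That list also counts acyl-CoA thioesterases, which are not steps of activation or of the shuttle. Of these, Acot2, of a mitochondrial enzyme, changed by -1.67 (SE 0.17). Cpt2, of the inner carnitine palmitoyltransferase, changed by -1.39 (SE 0.14; -0.22 in its other probe set) and Acsl6, of an acyl-CoA synthetase, by -0.60 (SE 0.08). Crot, of the peroxisomal carnitine octanoyltransferase, was higher by 0.50 (SE 0.12, adjusted p = 0.0132), a call lost without wild type array 1 or 2 or when replicate number was fitted as a block (adjusted p up to 0.059).

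Peroxisomal beta-oxidation, in which an oxidase takes the place of the dehydrogenase and ETF is not used, was lower in 6 of 10 genes and higher in none (median -0.28). Ehhadh, of the bifunctional enzyme, changed by -1.31 (SE 0.16), Hsd17b4, of the D-bifunctional protein, by -0.93 (SE 0.10) and the transporter gene Abcd3 by -0.75 (SE 0.12). Over probe sets above the median level only 5 genes of this list were tested, and 3 were lower. Breakdown of branched-chain amino acids and lysine was lower in 17 of 19 genes and higher in none (median -0.77). Here Hsd17b10, which acts after the Acadsb product in isoleucine breakdown, changed by -1.40 (SE 0.09), and the leucine genes Mccc1 and Mccc2 by -1.10 (SE 0.08) and -1.0 (SE 0.07).

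Other enzymes that reduce ubiquinone were lower in 6 of 9 genes (median -0.56) and higher in none. Prodh, of proline dehydrogenase, changed by -0.95 (SE 0.09), Dhodh, of pyrimidine synthesis, by -0.74 (SE 0.09) and Sdhb, of succinate dehydrogenase, by -0.56 (SE 0.07). Known regulators of fatty acid oxidation genes or of their products were lower in 9 of 15 and higher in none (median -0.44). Ppara, of the nuclear receptor that controls fatty acid oxidation genes, changed by -1.20 (SE 0.14), its relative Pparg by -0.81 (SE 0.08) and Sirt3, of the mitochondrial deacetylase, by -0.90 (SE 0.10). Limma adjusted p lay between 6.59e-05 and 0.00218 for the genes named as examples from the lists after those around ETF and FAD, Crot apart. Among these examples, Ehhadh, Mccc2, Prodh and Pparg had a mean below the median level of all probe sets.

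**Figure D5:**
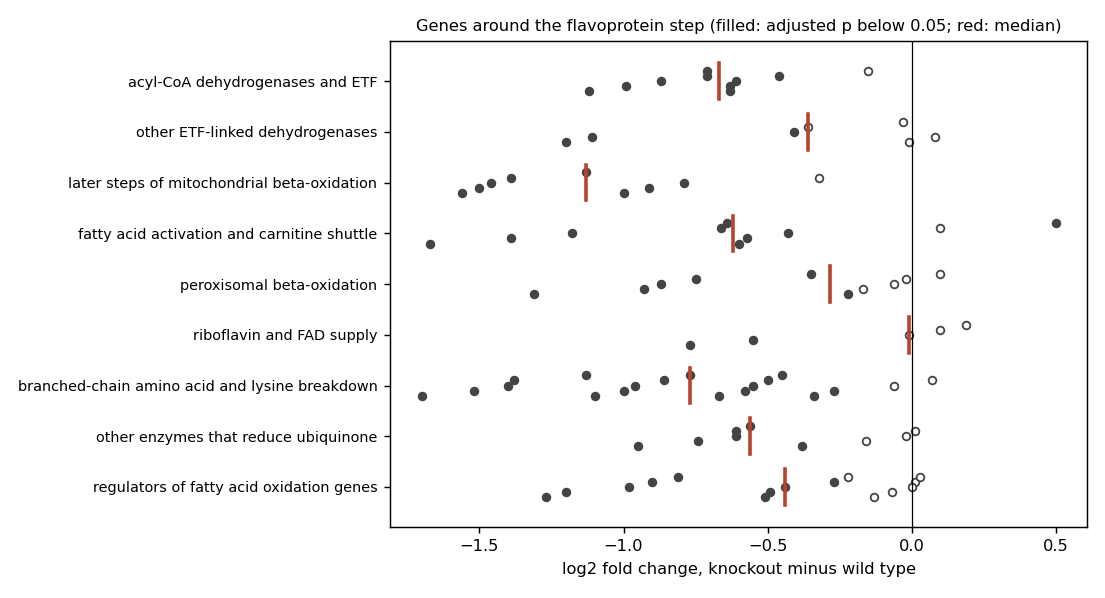
Log2 fold change, knockout minus wild type, of each gene by its brightest probe set (points; filled where adjusted p was below 0.05, open otherwise), with a red line for the median of each list. The later steps of beta-oxidation have the lowest median (-1.13), the member genes lie at -0.67, and Crot at 0.50 is the 1 filled point right of 0.

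Outside the members, the genes whose signal over the 7 arrays followed the mean of the 10 members most closely were Mrpl54, of the mitochondrial ribosome (Pearson r = 0.9994), Fabp3, of the muscle fatty acid binding protein (0.9988), Pmpcb, of the mitochondrial processing peptidase (0.9979), Cog6, of a Golgi complex (0.9960), and Zswim7 (0.9955). Their log2 fold changes were -0.37, -1.08, -0.47, -0.51 and -0.70. With 3 arrays at one level and 4 at another, r is set largely by the split between the groups, and 38 genes had r above 0.99. The order within knockout also enters r. The mean of the members, each scaled over the 7 arrays, was -0.24, -0.88, -1.15 and -0.72 in knockout arrays 1 to 4. Each gene named here was likewise highest in knockout array 1 and lowest in knockout array 3 among the knockout arrays. Among the members themselves, r with that mean, which includes the member itself, was 0.801 for Acad8 and 0.973 to 0.998 for the other 9.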

How the data were processed

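Total RNA from soleus was measured on 7 Affymetrix arrays. The authors deposited 1 linear intensity per probe set and array, made with RMA per the submitters' processing notes (background correction, normalization between arrays, summary of the probes of a set); no version is stated there. Array medians were 139.1 to 143.2 and the highest values 48550 to 50754. Arrays were compared for duplicates, and at most 1819 of 22690 values were equal in every digit in any pair. The table held 0 columns from outside the series, and scan dates and slides were not used here.

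The 64 control probe sets were left out. Of the 22626 others, 20380 had 1 gene symbol, 691 several and 1555 none. Symbols were updated through RefSeq identifiers (12369 of 12393 genes matched), and the probe set with the highest mean stood for a gene. Deposited intensities were taken to log2(value + 1) and fitted with limma 3.58.1 in R 4.3.3 (lmFit, eBayes, two-sided), with Benjamini-Hochberg adjustment over the 22626 probe sets, a threshold of 0.05 and no filter on dim probe sets. A log2 fold change is the knockout mean minus the wild type mean, with its standard error (SE). Permutation tests used scipy 1.17.1, took the size of the difference of means and were exact.

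Groups came from the sample titles. Replicates 1 to 3 share numbers between the groups, and their deviations from the group means did not correlate (r = 0.05, -0.10 and 0.01), so no pairing was fitted. The fit was tested on simulated data.

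The members and the gene lists were chosen with earlier results of these data known, so no test of a list is given. Named genes were all members, up to 3 genes per direction and pathway list with the smallest p, the 5 genes most like the members' mean, and Yy1. Genes of the lists without a probe set of 1 symbol were not analysed here. Nrf1, Esrra, Esrrb, Esrrg, Gabpa, Ppard, the 6 adipocyte markers (Ucp1 among them) and the 5 muscle fibre markers were named after their values were seen. Alternatives were the pseudocount, the normalization, a filter on dim probe sets, the variance model, array weights, the replicate block, each array left out, 1 probe set per gene and the mean of probe sets.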

Additional observations from a re-analysis of the deposited data

Results flagged for a closer look

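In 2 of the 12 member probe sets, 1 of the 4 knockout arrays lay far from the other 3. The gap of that array to its nearest neighbour was 0.883 of the knockout range for Acadvl and 0.908 for Acadm, above Dixon's critical value for 4 samples. Chance flags about 1 in 20 groups. Both times it was knockout array 1, the highest of the group, at 13.16 for Acadvl and 13.85 for Acadm. Without it the log2 fold changes were -0.70 for Acadvl and -0.96 for Acadm. Of the knockout arrays it had the lowest summed macrophage (7502), fibroblast (23757), Schwann cell (1460) and red blood cell (101) markers and the highest muscle fibre markers (364300). The red blood cell sum rests on 2 dim probe sets. Its log2 ratio of 3′ to 5′ control probe sets was the highest of all 7 arrays for Gapdh (0.05) and Actb (0.21). The part of these values in its position was not tested.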

How the results depend on the processing

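The 9 member genes called lower kept that call in all 17 alternatives, and none was called higher in any. Their log2 fold changes over the alternatives ran from -1.22 to -1.08 for Etfb, -1.08 to -0.93 for Etfdh, -0.96 to -0.79 for Acadm, -0.70 to -0.55 for Acadvl, -0.67 to -0.48 for Acadl, -0.71 to -0.58 for Acads, -0.78 to -0.65 for Acadsb, -0.82 to -0.63 for Gcdh and -0.51 to -0.40 for Etfa. Acad8 ran from -0.17 to -0.11 and passed in none of them. Of 198 recomputed log2 fold changes of member genes and their dimmer probe sets, which include averages over the probe sets of a gene, 190 kept their direction and their side of the threshold, and the other 8 were lost calls of the dimmer Acadl probe set, 1 of them with a pseudocount of 32 (adjusted p = 0.067). With the replicate number as a block, in which knockout array 4 has no partner and does not inform the difference, 9 of 12 member probe sets, 9 of 10 member genes and 55 of 84 pathway genes were lower (10, 9 and 59 without the block), and 5060 probe sets passed in all (6477 without the block). It changed the call of no member gene. Leaving out each array in turn gave 9 to 10 member probe sets, 51 to 60 pathway genes and 4878 to 6224 probe sets in all. No pair of member genes passed after adjustment under any alternative tested (smallest adjusted p = 0.0857, with probe sets averaged); without an array the pairs were given as values only. The cause of the differences between settings was not tested. The arrays' files carry no call of signal over background, which may limit the dimmer probe sets.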
